A study of Drosophila melanogaster with 13 samples.

Results

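The comparison set 5 head libraries with RNA interference (RNAi) against Rab5 beside 4 libraries labelled as RNAi against Rab7, all from adult Drosophila melanogaster aged 5 days. The members are these 9 of the 13 libraries and the 10038 of 18344 genes with a mean of at least 1 FPKM (read count scaled to gene length and to the size of the library) over all 13. The genotypes were GMR-Gal4/UAS-Rab5 RNAi, GMR-Gal4/UAS-Rab7 RNAi and, for the 4 control libraries, GMR-Gal4/WT, so the GMR driver, active in the developing and adult eye, was present in every library. Flies were reared at 25 °C, and each library started from 1.3 ug of head RNA. The purpose given with the series is to relate Rab proteins to microtubule assembly and tubulin expression, and it describes the Rab5 RNAi line as having a severe degeneration of the eye. The setting limits the comparison in several ways. RNA came from whole heads, of which the driven cells are a part, and each RNAi group is 1 genotype, so the RNAi and the rest of its genetic background cannot be told apart. Nothing in the labels ties a library to its own cross or set of flies, and the p-values therefore reflect only how far these libraries differ, which may be technical.

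Rab5 and Rab7 are small GTPases that act in sequence on the endocytic route. Rab5 marks early endosomes, where internalised membrane and receptors first arrive, and Rab7 marks the late endosomes that mature from them and fuse with lysosomes. In the fly eye, photoreceptors turn over rhodopsin and membrane of the rhabdomere, the light-sensing stack of microvilli, through these compartments, while pigment cells and lens-secreting cone cells surround each group of photoreceptors.

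The libraries held 17138630 to 21410768 reads on genes, recovered from the FPKM values, so 1 read on a gene of 1 kilobase was worth 0.0487 to 0.0599 FPKM. Within each group, libraries fell on both sides of the first principal component of the residuals, a component with 35.3% of the residual variance. Rab5 RNAi libraries 1 and 5, Rab7-labelled libraries 1 and 4 and control libraries 1 and 4 lay on 1 side, called the high set here, although control 1 lay close to 0, and the other 7 formed the low set. The muscle actin Act57B was at 1438 to 1574 FPKM in the high set other than control 1, which held 820 FPKM, and at 653 to 847 FPKM in the low set. The labels name no batch that matches these sets, and each RNAi group had libraries in both, so values within a set are given where a call ended there or a sign turned. The sets were formed from the residuals of these same values, which narrows the spread within a set. Adjusted p-values within a set therefore tend to be too small and serve as description only. Of the markers that define a head, those of photoreceptors, neurons, glia, muscle and fat body were all above 0 in every group, and the germline list summed to 0.413 to 3.15 FPKM.

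The targeted transcripts were examined first. Rab5 (chromosome 2L, 2359142 to 2365273, on the coordinates of the deposited table) held 62.8, 54.7, 51.7, 55.1 and 64.5 FPKM in Rab5 RNAi libraries 1 to 5. It held 131, 146, 119 and 110 FPKM in the Rab7-labelled libraries, and 112 to 122 FPKM in the controls. All 5 Rab5 RNAi libraries lay below all others, and the group mean was 57.7 ± 5.56 FPKM (SD, n = 5) against 127 ± 15.7 (SD, n = 4) in the Rab7-labelled heads. The log2 difference, Rab5 RNAi minus Rab7-labelled on the log2(FPKM + 1) scale used throughout, was -1.12 (SE 0.09, limma adjusted p = 1.1e-05), or 2.19-fold lower. It was -1.28 in the low set and -0.90 in the high set.

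Rab7 (chromosome 3R, 23993008 to 23995452) did not separate the libraries labelled for it. The Rab7-labelled libraries held 101, 109, 92.9 and 87.3 FPKM and the controls 98.6, 99.7, 96.1 and 105 FPKM, so these groups overlapped (log2 difference -0.04, adjusted p = 0.88). The Rab5 RNAi libraries held 106 to 120 FPKM, with a difference of 0.22 (SE 0.08, adjusted p = 0.083) from the Rab7-labelled ones. This comparison passed the threshold under quantile normalization, under plain read totals and without Rab7-labelled library 2, with a lowest adjusted p of 0.00838. Since the transcript of the target was not lower than in controls, the libraries are called Rab7-labelled.

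**Figure D1:**
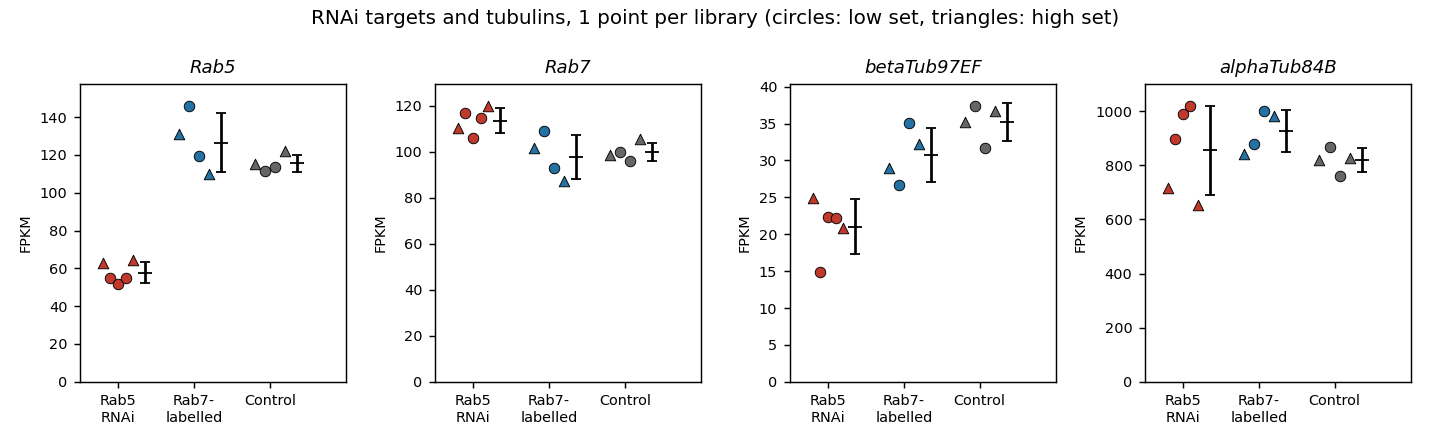
FPKM of Rab5, Rab7, betaTub97EF and alphaTub84B in each library by group, with circles for the low set, triangles for the high set and bars for mean ± SD. Rab5 lies at 51.7 to 64.5 FPKM in the Rab5 RNAi libraries and above 100 FPKM in all others, while Rab7 overlaps between the Rab7-labelled and control libraries.

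At an adjusted p below 0.05, 1111 of the 10038 genes (11.1%) differed between the RNAi groups, 469 higher in Rab5 RNAi heads (4.67%) and 642 lower (6.4%). The difference was at least 1 on the log2 scale for 89 of the genes called higher and 156 of those called lower, and the median over all genes tested was 0.00545. Libraries of the 2 groups did not overlap in 1159 genes (11.5%), of which 906 were called. With plain read totals in place of the authors' scaling, the median of all genes moved to 0.108 and 1221 genes were called higher against 429 lower, so 74% of calls were higher against 42.2% here. Without Rab7-labelled library 3, 295 genes were called higher and 429 lower. Of the 1111 genes, 1109 had the same sign in both library sets, and 377 passed the threshold in each set alone. The 1111 genes were called on the same libraries that make up the sets. Agreement in sign was therefore largely fixed by that choice and is not a replication.

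**Figure D2:**
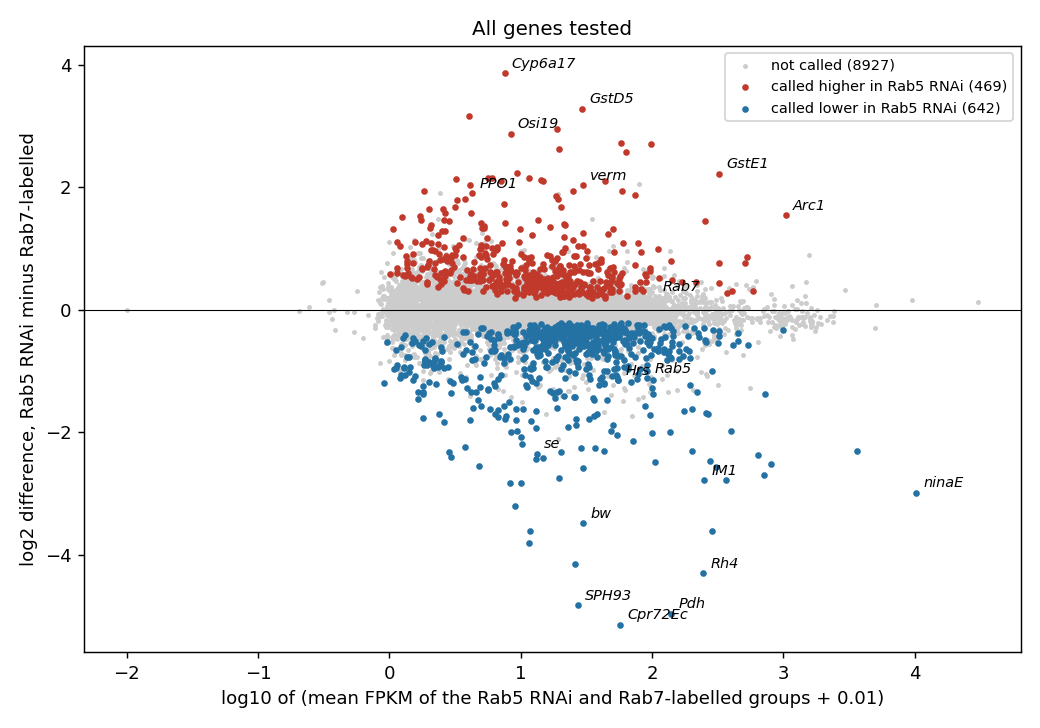
Mean FPKM of the RNAi groups (log10, horizontal) against the log2 difference between Rab5 RNAi and Rab7-labelled heads (vertical) for the 10038 genes tested. Red points are the 469 genes called higher in Rab5 RNAi, blue points the 642 called lower. Eye genes such as Rh4, Pdh and ninaE lie at the bottom, and Cyp6a17, GstD5 and GstE1 at the top.

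Where the controls lay differed from gene to gene. The control mean fell between the RNAi group means for 623 of the 1111 genes, beyond the Rab7-labelled mean for 419 and beyond the Rab5 RNAi mean for 69. On the log2 scale the controls were nearer to the Rab7-labelled heads for 853 genes and nearer to the Rab5 RNAi heads for 258. All comparisons share these controls, so the positions are a description with no test.

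Many genes of light detection were lower in Rab5 RNAi heads. Of 7 opsins, the light receptors, 4 were called lower and none higher (57.1% called, beside 11.1% of all genes), with a median difference of -1.71. Rh4, an ultraviolet opsin of inner photoreceptors, held 14.4, 27.8, 34.1, 26.9 and 12.8 FPKM in the Rab5 RNAi libraries and 324, 570, 634 and 341 FPKM in the Rab7-labelled ones. The groups were far apart, with a difference of -4.30 (SE 0.33, adjusted p = 8.1e-06), a 20.1-fold lower mean. ninaE, which encodes the major rhodopsin of the outer photoreceptors, held 849, 3813, 4918, 3292 and 686 FPKM against 10202, 23199, 26358 and 11057 FPKM. Within both groups the high-set libraries were the lower ones, and the groups did not overlap (-2.98, SE 0.56, adjusted p = 0.0042). In the controls ninaE held 21894 to 30165 FPKM.

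Rh3, the other ultraviolet opsin, held 90.6 to 170 FPKM in Rab5 RNAi and 377 to 429 FPKM in Rab7-labelled libraries (-1.71, adjusted p = 2.7e-05). Rh2, the opsin of the simple eyes on top of the head, held 0.195 to 1.34 FPKM against 13.5 to 31.4 FPKM (-3.61, adjusted p = 0.00078). In whole heads, fewer cells of a type and less RNA per cell cannot be told apart, and summed photoreceptor markers (ninaE, chp, trp, Arr2 and ninaC) ranged from 1393 to 7735 FPKM in Rab5 RNAi, from 15920 to 37200 in Rab7-labelled and from 31430 to 41790 in control libraries. Their part in the other differences was not tested.

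The opsins that were not called showed different patterns. Rh5, a blue opsin of inner photoreceptors, held 10.4, 54.8, 62.9, 63.0 and 8.35 FPKM in Rab5 RNAi libraries and 30.3, 188, 208 and 36.1 FPKM in Rab7-labelled ones, so the groups overlapped (-1.46, 95% interval -3.11 to 0.20, adjusted p = 0.26). Within each set, formed from these same values, they did not overlap. The differences were -1.70 (adjusted p = 2.6e-05) in the low set and -1.72 (adjusted p = 0.065) in the high set. Rh6, a green opsin, had near-equal group means of 209 ± 64.7 and 208 ± 39.3 FPKM (SD, n = 5 and 4). Its libraries lay in opposite order in the sets: 252 to 259 FPKM against 170 to 200 in the low set (0.47, adjusted p = 0.049), and 130 to 146 FPKM against 197 to 263 in the high set (-0.72, adjusted p = 0.033). The difference between sets was not tested. Rh7 held 6.72 to 10.9 FPKM and 7.47 to 9.71 FPKM, with a difference of 0.06 (95% interval -0.20 to 0.31). Rh5, Rh6 and Rh7 were named with their values known.

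Opsins pass their signal through a G protein and phospholipase C to TRP channels at the rhabdomere. Of 20 genes of this cascade, 15 were called lower and none higher (75% called, beside 11.1% of all genes, median -1.43). The arrestin gene Arr1, whose product ends rhodopsin signalling, held 71.4 to 343 FPKM in Rab5 RNAi and 900 to 1568 FPKM in Rab7-labelled libraries (-2.70, SE 0.41, adjusted p = 0.0011). Arr2, the more abundant arrestin, held 492 to 1981 FPKM against 3902 to 8014 FPKM (-2.31, adjusted p = 0.003). The channel gene trp, the G protein subunit gene Gbeta76C and the scaffold gene inaD fell by 2.51, 2.56 and 2.48 on the log2 scale, with no overlap between the groups in any of them. Gbeta76C was the most even of these in the Rab7-labelled libraries, at 489 to 530 FPKM, against 45.8 to 136 FPKM with Rab5 RNAi.

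Of 14 genes of the phosphoinositide and retinoid cycles, which renew the lipid signal and the light-absorbing chromophore, 9 were called lower and 1 higher. This was 71.4% called, beside 11.1% of all genes. Pdh, a dehydrogenase of retinoid metabolism in pigment cells, held 6.56, 9.81, 6.46, 10.7 and 4.78 FPKM in Rab5 RNAi libraries and 184, 335, 365 and 202 FPKM in Rab7-labelled ones. The Rab7-labelled libraries overlapped the controls at 236 to 463 FPKM, and the Rab5 RNAi libraries lay apart from both (-4.96, SE 0.27, adjusted p = 3.3e-07, 35.4-fold lower). ninaG, an oxidoreductase of chromophore synthesis, the diacylglycerol kinase rdgA and the phosphatidylinositol synthase Pis fell by 2.26, 1.20 and 0.81.

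Differences among structural genes were smaller. Of 21 photoreceptor structure genes, 6 were called lower and 2 higher (38.1% called, beside 11.1% of all genes, median -0.20). The rhabdomere adhesion protein gene chp (-1.66), the microvillar gene prom (-1.32) and eys (-1.01), whose secreted product opens the space between rhabdomeres, were lower in all Rab5 RNAi libraries. eys, chosen after its values were seen, held 24.9 to 35.1 FPKM against 55.9 to 60.5 FPKM and showed little of the difference between library sets that marks ninaE. Ama, an adhesion gene, was higher with Rab5 RNAi at 1.51 to 6.88 FPKM against 0.708 to 0.991 FPKM (1.21, adjusted p = 0.022), and its call ended without Rab7-labelled library 2 (1.18, adjusted p = 0.0552) or 3 (1.20, adjusted p = 0.0566).

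Of 21 photoreceptor transcription factors, 3 were called lower and 1 higher (19% called, beside 11.1% of all genes). None was higher without Rab5 RNAi library 2 or 5 or Rab7-labelled library 1, 3 or 4. Pph13, a regulator of photoreceptor genes, held 6.76 to 19.6 FPKM against 27.3 to 48.1 FPKM (-1.42, adjusted p = 0.0084). glass (gl), whose binding sites make up the GMR driver, held 12.8 to 23.4 FPKM against 25.6 to 30.0 FPKM (-0.67, adjusted p = 0.02), and its adjusted p was 0.0524 and 0.052 without Rab7-labelled library 1 or 4, and 0.104 within the low set. Photoreceptors signal with histamine, and 3 of 8 genes of its synthesis and recycling were called lower (37.5%, beside 11.1% of all genes) and none higher. These were Hdc, the histamine-making enzyme (-1.25), t, which frees histamine from its conjugate (-2.14), and CarT, the carcinine transporter (-1.73).

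Of 4 corneal lens genes 3 were called lower with Rab5 RNAi (75%, beside 11.1% of all genes called). The order of the groups was not the same for each. Cpr72Ec, a cuticle protein of the lens, held 0.413, 2.61, 2.76, 1.66 and 0.367 FPKM with Rab5 RNAi, 29.7, 205, 176 and 40.3 FPKM in Rab7-labelled and 15.4 to 28.4 FPKM in control libraries. No groups overlapped and the controls lay between (-5.14, SE 0.55, adjusted p = 8.9e-05). retinin, another lens protein gene, held 17.5 to 248 FPKM against 523 to 656 FPKM (-2.78, adjusted p = 0.017), with the 2 high-set libraries lowest among those with Rab5 RNAi. Crys, the lens crystallin gene, held 0.167 to 0.908 FPKM with Rab5 RNAi and 0.262 to 0.490 FPKM in controls, which overlapped, and 2.17 to 3.87 FPKM in Rab7-labelled libraries, which stood above both (-1.34, adjusted p = 0.00027).

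Of 7 ommochrome and pigment transporter genes, 3 were called lower and none higher (42.9% called, beside 11.1% of all genes). The pigment transporter gene bw held 1.39, 5.57, 7.01, 7.99 and 1.18 FPKM against 37.2, 62.1, 81.5 and 39.8 FPKM, with controls at 42.5 to 47.4 FPKM (-3.48, SE 0.41, adjusted p = 0.00017). st, a related transporter that carries ommochrome precursors, held 0.143 to 0.570 FPKM against 1.23 to 4.64 FPKM (-1.45, adjusted p = 0.003). w, with which bw and st each pair, held 5.63 to 19.8 FPKM against 11.1 to 12.1 FPKM, with a difference of -0.09 (95% interval -0.74 to 0.57). The difference was 0.39 (adjusted p = 0.186) in the low set and -0.81 (adjusted p = 0.073) in the high set, and the difference between sets was not tested. Of 10 pteridine pigment genes 1, se, was called (10%, beside 11.1% of all genes), and 2 without Rab5 RNAi library 4 or Rab7-labelled library 4. Summed pigment cell markers (Pdh, w and v) ranged from 47.7 to 59.6 FPKM with Rab5 RNAi from 260 to 444 FPKM in Rab7-labelled and from 270 to 504 FPKM in control libraries. Pdh made up most of the sum outside the Rab5 RNAi group, and w and v did not share its pattern.

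**Figure D3:**
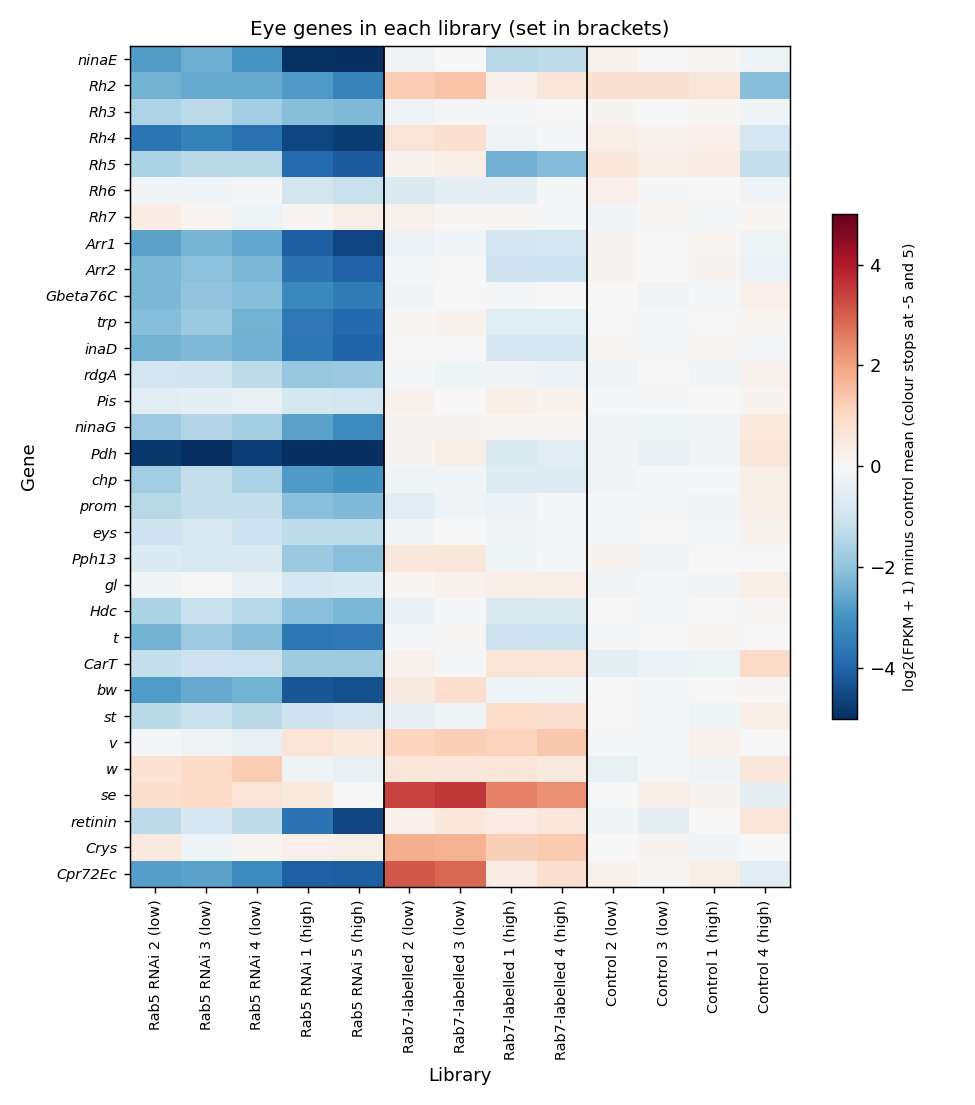
Each row is an eye gene and each column a library, coloured by log2(FPKM + 1) minus the control mean, with the colour scale ending at -5 and 5. The 5 Rab5 RNAi columns are blue for most genes, mostly deepest in the 2 high-set libraries. In the Rab7-labelled columns se, Crys, v and Cpr72Ec are red, Rh5 and several cascade genes are blue in the high set, and most others are near the controls.

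In the endocytic system the differences beyond Rab5 were few. Of 26 Rab genes 4 were called lower and none higher (15.4% called, beside 11.1% of all genes, median -0.01). The count called higher was 4 under plain read totals. Rab14, which acts between early endosomes and the Golgi, held 47.7 to 51.9 FPKM against 59.1 to 69.9 FPKM (-0.37, adjusted p = 0.0068), and did not pass within the low set (adjusted p = 0.0728) or the high set (0.0641). Rab6, a Golgi Rab, held 26.6 to 36.1 FPKM against 39.8 to 49.4 FPKM (-0.46, adjusted p = 0.0085), and the controls at 33.6 to 37.5 FPKM overlapped the Rab5 RNAi libraries; within the low set its adjusted p was 0.104. Rab32, which acts in pigment granule formation, was also called (-0.65, adjusted p = 0.03). Its call ended without Rab5 RNAi library 1 or Rab7-labelled library 2, 3 or 4, with adjusted p-values of 0.0596, 0.0639, 0.0882 and 0.0607.

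Of 46 other endosomal trafficking genes, 2 were called lower and 1 higher (6.52% called, beside 11.1% of all genes). Without Rab5 RNAi library 1 or 5, or Rab7-labelled library 1 or 4, 1 was called lower. Hrs, the ESCRT subunit that gathers ubiquitinated cargo on early endosomes, held 26.6, 33.3, 45.4, 40.7 and 26.0 FPKM with Rab5 RNAi and 80.3, 70.0, 77.0 and 76.4 FPKM in Rab7-labelled libraries. The controls at 58.7 to 73.1 FPKM overlapped the Rab7-labelled libraries, and all Rab5 RNAi libraries lay below both groups (-1.15, SE 0.15, adjusted p = 0.00026). lt, a subunit of the complex that tethers late endosomes to lysosomes, was higher at 23.1 to 31.2 FPKM against 18.9 to 22.4 FPKM (0.33, adjusted p = 0.024), and its adjusted p was 0.0816 and 0.0694 without Rab7-labelled library 3 or 4, and 0.149 and 0.0988 within the low and high sets. Of 20 subunits of the vacuolar proton pump, which acidifies these compartments, 2 were called higher (10%, beside 11.1% of all genes) and none lower. These were Vha68-2 (0.51) and Vha100-2 (0.43), each with the libraries of the groups apart, and neither passed within the high set (adjusted p = 0.171 and 0.099). The count called higher was 8 under quantile normalization, 6 under plain read totals and 4 without Rab5 RNAi library 2. Both genes were named with their values known.

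Tubulins, the subunits of microtubules and a stated interest of the series, were mostly at similar levels. Of 9 tested, 1 was called (11.1%, the same share as over all genes). betaTub97EF (chromosome 3R, 27967008 to 27988384) held 24.9, 14.9, 22.3, 22.2 and 20.8 FPKM with Rab5 RNAi and 29.0, 26.7, 35.1 and 32.3 FPKM in Rab7-labelled libraries. The groups did not overlap and the controls, at 31.7 to 37.4 FPKM, were with the Rab7-labelled ones (-0.54, SE 0.13, adjusted p = 0.014). The call ended without Rab7-labelled library 3 (-0.48, adjusted p = 0.053) and within each set alone.

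The major tubulins showed wide spread among Rab5 RNAi libraries. alphaTub84B held 716, 898, 988, 1020 and 654 FPKM against 841 to 1002 FPKM (-0.13, 95% interval -0.42 to 0.15), and its near-identical copy alphaTub84D, with which reads may have been shared, held 47.8 to 58.4 FPKM against 50.1 to 59.8 FPKM (-0.08, 95% interval -0.25 to 0.09). betaTub56D held 374, 458, 644, 590 and 337 FPKM against 417 to 547 FPKM (-0.02, 95% interval -0.39 to 0.36). For both alphaTub84B and betaTub56D, the 2 high-set libraries were the lowest among those with Rab5 RNAi. betaTub60D held 3.92 to 9.60 FPKM against 3.72 to 6.55 FPKM (0.35, adjusted p = 0.33). It passed within the high set, where 7.11 and 7.18 FPKM stood against 3.72 and 3.72 FPKM (0.79, adjusted p = 0.022). The intervals of gammaTub23C (-0.31 to 0.04), CG7794 (-0.08 to 0.71), betaTub85D (-0.28 to 0.26) and alphaTub67C (-0.22 to 0.43) all included 0. Of 39 microtubule-associated proteins and motors, 2 were called higher and 1 lower (7.69% called, beside 11.1% of all genes). The kinase gene sgg fell by 0.37 (18.4 to 22.3 FPKM against 24.4 to 29.7 FPKM, adjusted p = 0.0052), while the kinesin genes Klp31E and Klp10A rose by 0.29 and 0.22. Without Rab7-labelled library 1 neither kinesin passed (adjusted p = 0.0596 for Klp31E and 0.052 for Klp10A), nor without library 4 (0.0679 and 0.068). Klp31E also lost its call without Rab7-labelled library 3 or Rab5 RNAi library 5, and Klp10A without Rab5 RNAi library 3, and neither passed within a set. sgg did not pass within the high set (-0.26, adjusted p = 0.142).

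Immune genes divided by family. Bomanins are short secreted peptides made on Toll signalling and act against Gram-positive bacteria and fungi. Of 21 Bomanin, drosomycin and related genes 8 were called lower and none higher (38.1% called, beside 11.1% of all genes, median -1.42). IM1 (chromosome 2R, 18383949 to 18384378) held 71.0, 53.8, 54.4, 40.8 and 60.4 FPKM with Rab5 RNAi and 232, 682, 648 and 217 FPKM in Rab7-labelled libraries. The Rab7-labelled libraries fell on either side of the controls, at 397 to 456 FPKM, by library set, and the Rab5 RNAi libraries lay below all (-2.79, SE 0.32, adjusted p = 0.00014). IM3 (-1.68) and CG43202 (-1.51), chosen after their values were seen, and CG5791 (-2.75) and CG5778 (-1.88) likewise had no Rab5 RNAi library above the lowest Rab7-labelled one. CG15067 held 29.0 to 141 FPKM against 170 to 539 FPKM (-2.30, adjusted p = 0.0139). Its call ended without Rab7-labelled library 3 and within the high set (-0.35, adjusted p = 0.478). CG15065, chosen after its values were seen, also lost its call within the high set (-1.09, adjusted p = 0.48). There it held 2.93 to 23.7 FPKM against 16.1 to 24.6 FPKM. Within the low set 15 of the 21 were called lower and none higher, with a median of -2.44. Within the high set 5 were called lower and 4 higher, with a median of 0.08. The difference between the sets was not tested. Summed fat body markers (Yp1, Yp3, Lsp2 and apolpp) ranged from 79.4 to 202 FPKM with Rab5 RNAi, from 156 to 202 in Rab7-labelled and from 172 to 211 in control libraries. Their medians were 90.5, 173 and 188 FPKM. Yp1 and Yp3 are also female markers, and the sex of the flies is not among the sample details used here. Summed female markers (Yp1, Yp2, Yp3 and fit) ranged from 6.1 to 23.6, 14 to 43.8 and 45.2 to 53.2 FPKM in the same order. The male markers roX1 and roX2 summed to 269 to 363, 260 to 329 and 308.5 to 314 FPKM. What part sex had in these values was not tested. Of 14 fat body genes 3 were called lower and none higher (21.4% called, beside 11.1% of all genes, median -0.575). Of these 14 fat body genes, 9 were called lower in the low set and 2 in the high set. Their part in the Bomanin differences was not tested.

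SPH93, a serine protease homologue, had the largest difference among 36 Toll and Imd signalling genes. It held 0.274, 0.245, 0.102, 0.161 and 0.837 FPKM with Rab5 RNAi and 19.1, 97.8, 91.0 and 8.99 FPKM in Rab7-labelled libraries, with controls at 31.0 to 46.3 FPKM. Every Rab5 RNAi library lay below 1 FPKM and every other above 8 FPKM (-4.82, SE 0.55, adjusted p = 0.00015). In the limma-voom fit of recovered reads its adjusted p was 0.0607. spz, the ligand of Toll, was higher at 25.3 to 26.7 FPKM against 15.1 to 20.1 FPKM (0.56, adjusted p = 0.001). pirk, an inhibitor of Imd signalling, was higher (0.63, adjusted p = 0.018; 0.0563 without Rab7-labelled library 3), and Tab2, a kinase adaptor of that route, was lower at 14.4 to 19.9 FPKM against 23.9 to 33.9 FPKM (-0.82, adjusted p = 0.00041). In all, 3 of the 36 were called higher and 4 lower (19.4% called, beside 11.1% of all genes). Without Rab7-labelled library 3 the counts were 1 and 2. Without Rab7-labelled library 2 or Rab5 RNAi library 2, 3 or 4, 2 were also called lower.

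Some peptides against Gram-negative bacteria were higher with Rab5 RNAi than in Rab7-labelled heads. Of 13 attacin, cecropin, diptericin and related genes 3 were called higher with Rab5 RNAi and none lower (23.1% called, beside 11.1% of all genes, median 0.95). Against the controls the median was 0.00732 for Rab5 RNAi and -0.862 for Rab7-labelled heads. Dro, the peptide drosocin, held 114, 112, 84.7, 59.0 and 136 FPKM with Rab5 RNAi and 13.7, 26.3, 17.0 and 5.84 FPKM in Rab7-labelled libraries. The RNAi groups were apart, and the controls ranged over both, from 16.2 to 163 FPKM (2.72, SE 0.55, adjusted p = 0.0069). With the replicate number as a block in the fit, the Dro call ended (adjusted p = 0.0543). CecB held 2.69 to 14.8 FPKM against 0.282 to 2.40 FPKM (2.03, adjusted p = 0.0095), and did not pass within the low set (0.0564) or the high set (0.0612). Its controls, at 1.15 to 6.35 FPKM, overlapped both RNAi groups. CecA1, whose reads may be shared with its near copy CecA2, was at 18.5 to 73.8 FPKM against 0.883 to 11.3 FPKM (2.62, adjusted p = 0.022). The CecA1 call ended without Rab7-labelled library 2 (adjusted p = 0.0679) or 4 (0.0612), in the limma-voom fit (0.0612) and within the low set (0.256). The controls held 1.12 to 17.5 FPKM of CecA1 (Rab5 RNAi minus control 1.98, adjusted p = 0.056). The number called higher in this list was 7 within the high set, 1 within the low set and 6 without Rab7-labelled library 3, and 5 without control library 2 or 4.

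Several markers of hemocytes, the blood cells of the fly, were lower in the Rab7-labelled heads than in both other groups. Of 21 hemocyte and engulfment genes, 5 were called higher with Rab5 RNAi and 1, NimB1, lower (28.6% called, beside 11.1% of all genes). The NimB1 call ended without Rab7-labelled library 1, 3 or 4, within each set, and with plain read totals. PPO1, the prophenoloxidase of crystal cells, held 5.68, 6.60, 8.53, 10.9 and 5.07 FPKM with Rab5 RNAi and 1.38, 0.794, 1.48 and 1.12 FPKM in Rab7-labelled libraries. The controls at 6.10 to 9.39 FPKM overlapped the Rab5 RNAi libraries (Rab5 RNAi minus Rab7-labelled 1.90, SE 0.19, adjusted p = 4.9e-05; minus control -0.02, adjusted p = 0.96; Rab7-labelled minus control -1.92, adjusted p = 0.00016). Hml, a clotting protein of plasmatocytes, held 6.73 to 23.9, 4.87 to 6.61 and 11.5 to 20.3 FPKM in the 3 groups in that order (1.10, adjusted p = 0.017), and the phagocytic receptor genes Sr-CI (1.01) and NimC1 (0.97) were likewise lowest in the Rab7-labelled heads by mean. Hml and Sr-CI did not pass within the low set (adjusted p = 0.21 and 0.108), nor NimC1 within the high set (0.0512). Their summed marker list (Hml, NimC1, eater, He and PPO1) ranged from 17.8 to 45.4 FPKM with Rab5 RNAi, from 8.35 to 11 in Rab7-labelled and from 22.8 to 37.3 in control libraries. PPO2 (0.11), Pxn (0.16), crq (0.03) and srp (-0.39), also expressed in hemocytes, were not called. Over the 21 genes the differences ran from -1.11 to 1.90, with 16 positive and 5 negative.

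NimC4, a receptor for engulfing dying cells that is used by glia and hemocytes, was an exception in the order of groups. It held 20.2, 4.80, 10.2, 12.4 and 12.8 FPKM with Rab5 RNAi, 3.13, 3.22, 1.86 and 2.56 FPKM in Rab7-labelled libraries and 1.93 to 3.81 FPKM in controls. The Rab5 RNAi libraries alone stood above the controls (1.73 against the Rab7-labelled, SE 0.29, adjusted p = 0.0022). It was chosen after its values were seen.

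**Figure D4:**
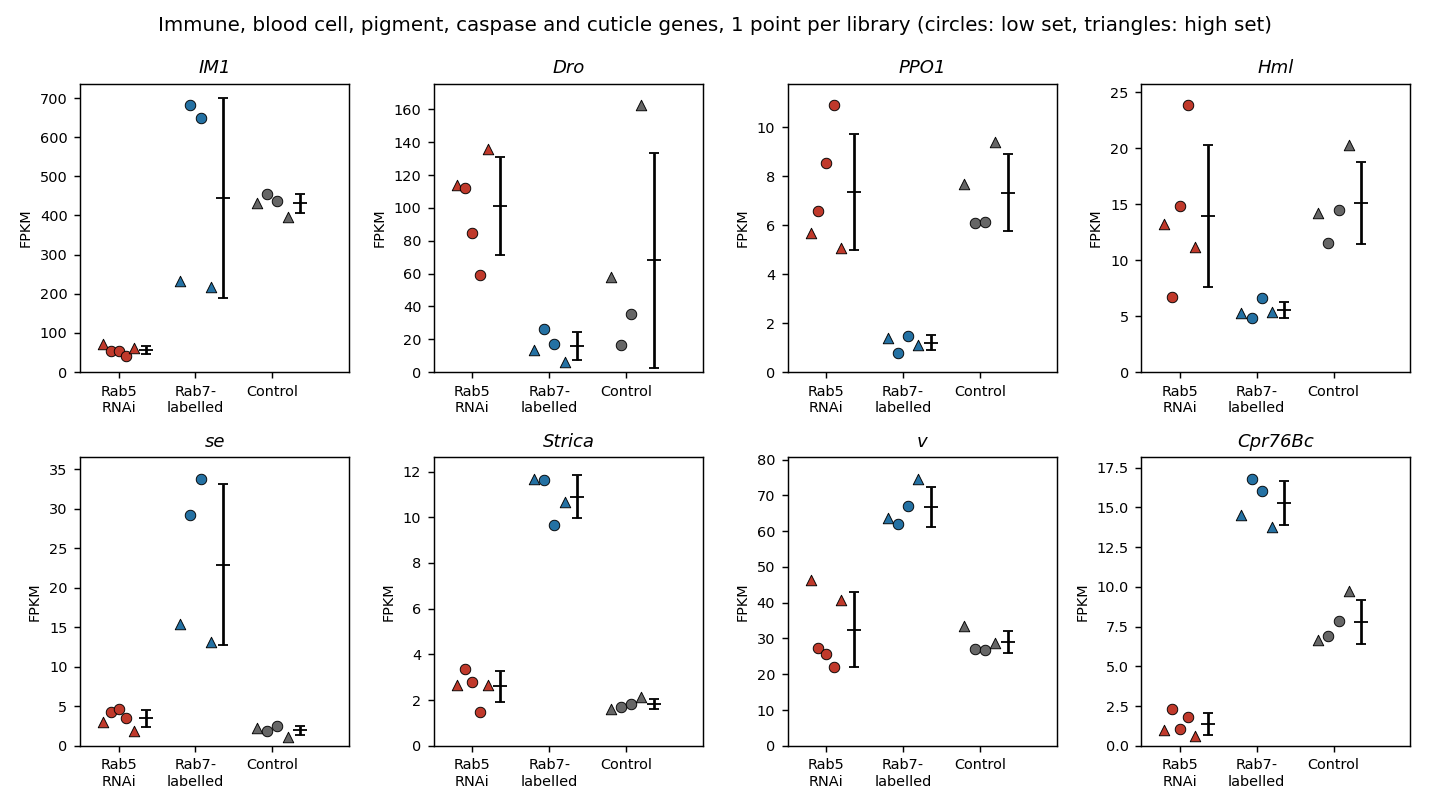
FPKM per library of 8 genes by group, with circles for the low set, triangles for the high set and bars for mean ± SD. IM1 is lowest in the Rab5 RNAi libraries, and the high-set Rab7-labelled libraries also lie below the controls. PPO1 is low and se, Strica and v are high in the Rab7-labelled libraries, and for Cpr76Bc the controls lie between the RNAi groups.

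Signalling genes linked to tissue damage were higher with Rab5 RNAi in small numbers. upd3, a cytokine that activates JAK/STAT signalling, held 5.07, 6.82, 8.28, 6.63 and 5.26 FPKM against 1.10, 1.48, 0.811 and 1.03 FPKM. The Rab7-labelled libraries overlapped the controls at 0.748 to 1.43 FPKM (1.81, SE 0.15, adjusted p = 1.2e-05, 5.8-fold). Socs36E, a feedback inhibitor of the same signal, held 44.0 to 53.5 FPKM against 25.5 to 32.6 FPKM (0.76, adjusted p = 5.7e-05). Of 14 genes of this list 3 were called higher, the other being Tep4, and 1, Tep2, lower (28.6% called, beside 11.1% of all genes). The call of Tep2 (-0.64, adjusted p = 0.042) was kept without Rab5 RNAi library 1 or 5 and ended without any other library.

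Of 21 TNF and JNK signalling genes, 4 were called higher and none lower (19% called, beside 11.1% of all genes). The matrix metalloprotease gene Mmp1 held 31.2, 49.0, 49.4, 51.0 and 31.0 FPKM against 17.6, 15.7, 15.5 and 18.7 FPKM, with no overlap (1.25, SE 0.16, adjusted p = 0.00033). Pvf1, a growth factor, and Ets21C, a transcription factor of the JNK response, rose by 0.98 and 0.71, with adjusted p-values of 0.0769 for Pvf1 within the high set and 0.0831 for Ets21C within the low set. Among 16 apoptosis genes the share called was 12.5%, near the 11.1% of all genes, with 2 higher and none lower. These were p53 at 8 to 14.6 FPKM against 5.44 to 7.59 FPKM (0.66, adjusted p = 0.013) and its target Corp at 4.02 to 6.31 FPKM against 2.25 to 3.44 FPKM (0.65, adjusted p = 0.0068), both chosen after their values were seen. Corp did not pass within the low set (0.43, adjusted p = 0.185). The death genes rpr (0.39), hid (-0.00) and skl (0.50) and the caspase genes Dronc (-0.03), Drice (0.14) and Dcp-1 (0.15) did not pass. The caspase gene Strica was not in this list and was called lower with Rab5 RNAi, as given below with the genes in which Rab7-labelled heads stood apart.

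Detoxification genes held some of the steepest rises. Of 34 glutathione S-transferases 6 were called higher with Rab5 RNAi and 3 lower (26.5% called, beside 11.1% of all genes, median 0.11). GstD5 held 98.1, 21.9, 31.1, 21.7 and 99.8 FPKM against 5.27, 2.49, 1.74 and 6.10 FPKM, with the high-set libraries the highest in both groups (3.28, SE 0.47, adjusted p = 0.00073). GstE1 (chromosome 2R, 18398393 to 18399223) held 404, 529, 719, 656 and 356 FPKM against 107, 106, 118 and 108 FPKM, and its controls were lower again at 32.8 to 83.2 FPKM. The 3 groups did not overlap (2.22, SE 0.25, adjusted p = 0.00012). Its neighbour GstE10 rose by 1.64, while GstE14, which makes ecdysteroid precursors, fell by 1.43 (6.12 to 21.1 FPKM against 32.3 to 40.6 FPKM, adjusted p = 0.017).

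Of 67 cytochrome P450 genes 4 were called higher and 5 lower, a share of 13.4% beside 11.1% of all genes. Cyp6a17, known for a role in temperature preference, held 19.2, 11.8, 11.2, 13.1 and 19.5 FPKM with Rab5 RNAi and 0.0645 to 0.0905 FPKM in Rab7-labelled libraries, where it lay near the level of a few reads, as in controls at 0.0314 to 0.0963 FPKM (3.85, SE 0.16, adjusted p = 1.1e-08). Cyp4p1 held 79.4 to 107 FPKM against 18.7 to 30.9 FPKM with controls between at 43.0 to 60.2 FPKM (1.93, adjusted p = 8.7e-06). Cyp309a2 (-1.14) and Cyp304a1 (-1.06) were lower with Rab5 RNAi, at 1.52 to 2.6 and 0.0315 to 0.864 FPKM, and these libraries overlapped the controls while the Rab7-labelled ones stood above. Cyp309a2 had an adjusted p of 0.0518 within the high set. The count called lower in the family was 19 within the low set and 3 within the high set, 9 without Rab5 RNAi library 1 and 3 without Rab7-labelled library 2, and the count called higher was 2 without Rab5 RNAi library 4 or 5.

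Cuticle genes moved in both directions. Of 31 cuticle protein genes 5 were called higher and 7 lower (38.7% called, beside 11.1% of all genes). The number higher was 3 without Rab7-labelled library 1 or 2 and 2 without library 3. Cpr49Ag held 0 to 1 FPKM with Rab5 RNAi, 11.7 to 34.5 FPKM in Rab7-labelled and 4.60 to 7.28 FPKM in control libraries (-3.81, adjusted p = 1.2e-05). Cpr76Bc held 0.976, 2.29, 1.06, 1.81 and 0.636 FPKM, 14.5, 16.8, 16 and 13.8 FPKM, and 6.64 to 9.72 FPKM in the same order (-2.83, SE 0.18, adjusted p = 1.4e-06). For both genes the 3 groups were apart with the controls between. Among 7 Osiris genes, which encode membrane proteins of cuticle-secreting cells, Osi5 (-2.83), Osi9 (-1.78) and Osi6 (-1.71) were lower and Osi19 higher (2.87). The calls of Osi6 and Osi9 narrowly ended without Rab7-labelled library 3 (adjusted p = 0.0525 for each), and that of Osi9 without library 2 (0.0502). Both genes passed within each library set alone. The chitin deacetylase genes verm and serp, neighbours on chromosome 3L and chosen after their values were seen, rose together. verm held 40.4, 37.0, 71.4, 54.8 and 37.4 FPKM against 12.1, 9.03, 8.30 and 14.1 FPKM (2.03, adjusted p = 5e-05), and serp held 22.9 to 41.1 FPKM against 6.18 to 9.10 FPKM (1.86, adjusted p = 1.3e-05). Neither had overlapping RNAi groups.

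Pigment chemistry of the cuticle and dopamine gave 4 genes called higher and 1 lower of 18 (27.8% called, beside 11.1% of all genes). ple, the tyrosine hydroxylase that starts dopamine synthesis, held 50.6 to 86.3 FPKM against 18.6 to 35.0 FPKM (1.24, SE 0.20, adjusted p = 0.0019). y, a cuticle pigment gene that is also a common transgene and background marker, held 17.7, 38.2, 45.2, 39.2 and 16.7 FPKM with Rab5 RNAi, 6.67, 14.5, 15.8 and 7.27 FPKM in Rab7-labelled libraries and 0.0282 to 0.136 FPKM in controls. All 3 groups were apart, and in both RNAi groups the high-set libraries were lower (1.40, SE 0.32, adjusted p = 0.014; 0.051 with the RNAi libraries fitted alone). The count called higher was 2 without Rab5 RNAi library 4 or Rab7-labelled library 2 or 3.

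Among genes of neurons the shares called were 10.7% of 28 neuropeptide genes and 10% of 20 synaptic genes, near the 11.1% of all genes. Arc1, which forms virus-like capsids that carry RNA between cells, held 1572, 1311, 1737, 1520 and 1448 FPKM with Rab5 RNAi, 879, 387, 280 and 759 FPKM in Rab7-labelled libraries and 161 to 309 FPKM in controls. The RNAi groups were apart and the high-set Rab7-labelled libraries were the higher ones (1.54, SE 0.30, adjusted p = 0.0051). The difference was 2.20 in the low set and 0.89 in the high set, where it did not pass (adjusted p = 0.066), and the difference between sets was not tested. Its neighbour Arc2 rose by 1.31 (adjusted p = 0.00039). Of the 28 neuropeptide genes 3 were called higher and none lower (10 higher under plain read totals and 5 under quantile normalization), among them Mip at 102 to 133 FPKM against 66.3 to 77.5 FPKM (0.68, adjusted p = 0.001; 0.0615 within the high set) and AstC at 107 to 130 FPKM against 63.2 to 92.7 FPKM (0.63, adjusted p = 0.0024). nSyb, the synaptic vesicle fusion protein gene, fell by 0.55 (217 to 296 FPKM against 313 to 436 FPKM, adjusted p = 0.0082), and cry, the blue-light receptor of the clock, fell by 0.54 (45.9 to 68.3 FPKM against 81.5 to 94.7 FPKM, adjusted p = 0.0048). Both were named with their values known. Summed neuron markers (elav, nSyb, Syt1 and brp) were 394 to 504 FPKM with Rab5 RNAi, 485 to 671 in Rab7-labelled and 571 to 642 in control libraries. This sum holds nSyb, so it is not separate from the difference of that gene. Summed glial markers (repo, Eaat1 and alrm) were 91.9 to 163, 106 to 118 and 162.9 to 178.5 FPKM in the same order.

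Housekeeping groups had small medians. The shares called were 1.15% of cytosolic ribosomal, 9.72% of mitochondrial ribosomal and 5.56% of proteasome genes, beside 11.1% of all genes. Of 87 cytosolic ribosomal protein genes 1 was called higher and none lower (median -0.14). None was higher without Rab5 RNAi library 4 or Rab7-labelled library 1 or 3, and 1 was lower without Rab5 RNAi library 1 or Rab7-labelled library 2. Of 72 mitochondrial ribosomal protein genes 7 were called lower (median -0.06), a count that ranged from 2, without Rab7-labelled library 2 or 3, to 8 with 1 library left out. It was 3 or 4 without Rab5 RNAi library 1 or 5, Rab7-labelled library 4 or control library 1. The mitochondrial median was 0.05 under plain read totals. mRpS9 was the most changed of these, at 33.2 to 41.6 FPKM against 52.6 to 65.5 FPKM (-0.61, adjusted p = 0.0017; 0.0512 within the high set). Of 36 proteasome genes 2 were called lower (1 to 4 with 1 library left out), led by Rpt1, a base subunit chosen after its values were seen, at 46.0 to 56.5 FPKM against 81.5 to 90.5 FPKM (-0.72, adjusted p = 9.4e-05). Within the high set 18 proteasome genes were called lower and none higher (median -0.46), and within the low set 1 each way (median 0.07). The difference between sets was not tested.

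**Figure D5:**
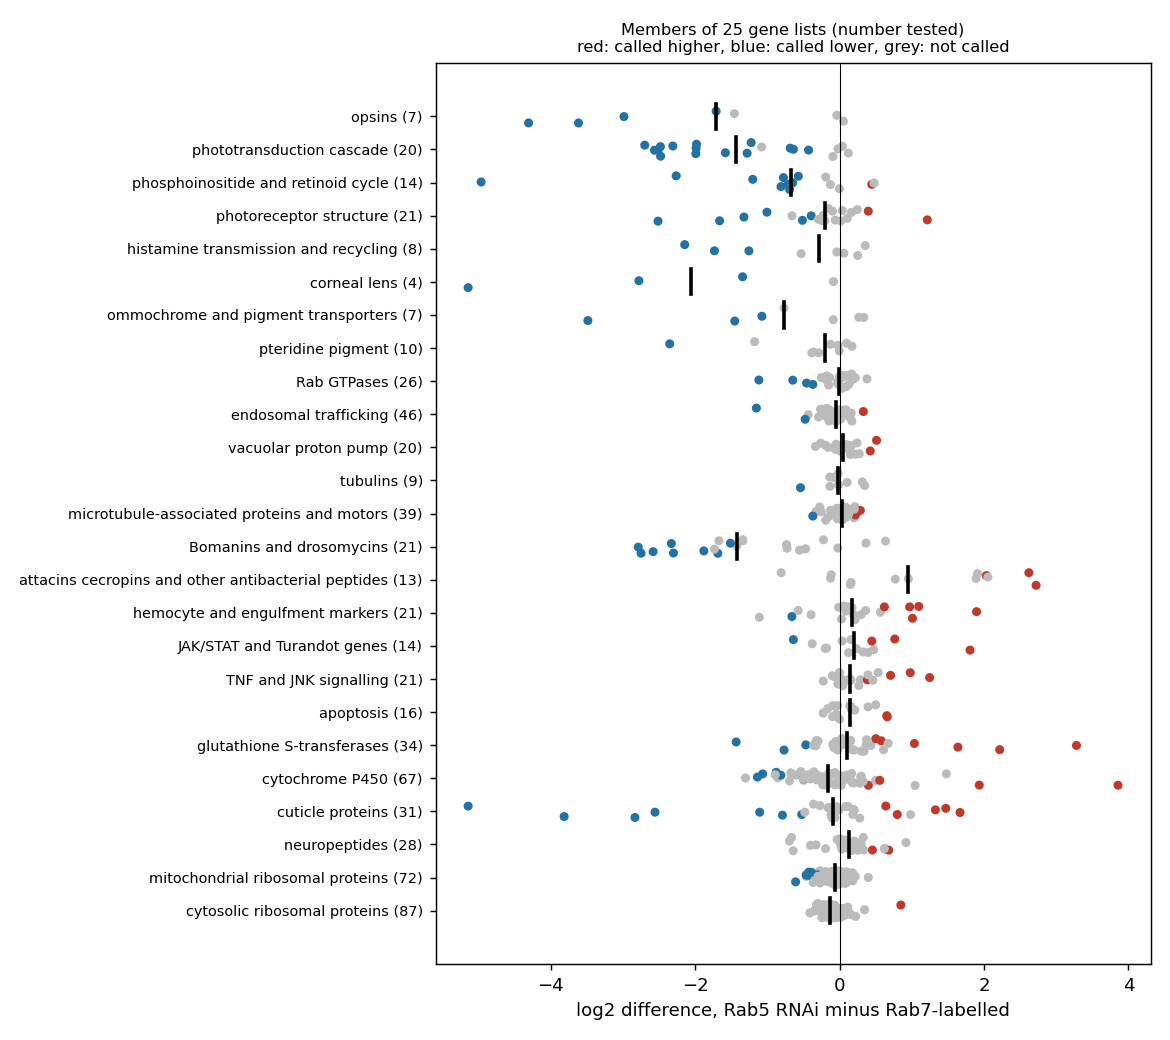
Log2 difference between Rab5 RNAi and Rab7-labelled heads for each tested member of 25 gene lists, with the number tested in brackets and a black line at each list's median. Opsins, phototransduction, corneal lens and Bomanin genes have medians of -1.71, -1.43, -2.06 and -1.42, while Rab genes, tubulins and ribosomal proteins lie close to 0.

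Some of the largest differences fell outside the lists. CG4842 held 1.37 to 2.13 FPKM with Rab5 RNAi, 26.7, 75.7, 68.2 and 29.5 FPKM in Rab7-labelled and 16.5 to 18.2 FPKM in control libraries (-4.14, SE 0.26, adjusted p = 1.7e-06). It starts at 16368389 on chromosome 3L, next to Cpr72Ec, which ends at 16367340, and Pdh, at 16353233 to 16354297, and all 3 genes were lower. CG1561 held 16.4, 90.3, 75.0, 70.2 and 13.5 FPKM, 634, 370, 421 and 664 FPKM in the RNAi groups, with a control mean of 151 FPKM (-3.61, adjusted p = 0.001). The neighbours CG13965, CG42866 and CG16772, within 19961224 to 19963844 on chromosome 2L, fell by 2.25, 1.93 and 2.37, the last 2 chosen after their values were seen.

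On the higher side, CG42753 had 0 reads in the 4 Rab7-labelled libraries and 6.17 to 8.81 FPKM in the Rab5 RNAi libraries, at least 129.9-fold higher against a floor of 3 reads over the group. CG8012 held 129 to 218 FPKM against 18.6 to 37.8 FPKM (2.70, adjusted p = 3.6e-06), and the Rab7-labelled libraries overlapped the controls. CG9701 held 41.9, 152, 157, 160 and 44.9 FPKM against 12.2 to 18.3 FPKM (2.57, adjusted p = 0.0012), with the high-set libraries the lowest of the Rab5 RNAi group. A gene of the leucine transfer RNA family, tRNA:Leu-AAG-1-4, was also among the 10 largest (2.95), but near-identical copies make its reads uncertain. TpnC4, a troponin C gene chosen after its values were seen, held 4.18 to 7.88 FPKM against 0.344 to 0.859 FPKM (2.13, adjusted p = 2.5e-05). It was the 1 gene called of 27 muscle genes (3.7%, beside 11.1% of all genes).

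In a last group of genes the Rab7-labelled heads stood apart from controls and the Rab5 RNAi heads overlapped them. The pteridine gene se, which makes the precursor of red eye pigments, held 3.03, 4.30, 4.65, 3.53 and 1.87 FPKM with Rab5 RNAi, 15.5, 29.2, 33.8 and 13.1 FPKM in Rab7-labelled and 1.11 to 2.55 FPKM in control libraries. Only the Rab7-labelled libraries were apart (Rab5 RNAi minus Rab7-labelled -2.35, adjusted p = 0.00016; Rab7-labelled minus control 2.94, adjusted p = 0.00011). Strica, a caspase gene, held 2.68, 3.35, 2.80, 1.48 and 2.68 FPKM, 11.7, 11.6, 9.66 and 10.7 FPKM, and 1.62 to 2.13 FPKM (-1.75, SE 0.14, adjusted p = 8.1e-06; Rab7-labelled minus control 2.08, adjusted p = 5.5e-06). It was even across library sets, unlike se. v, the enzyme that starts ommochrome synthesis and also a common transgene marker, held 22 to 46.4 FPKM, 62.1 to 74.7 FPKM and 26.7 to 33.3 FPKM (-1.07, adjusted p = 0.002).

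Cpr62Bc went the other way, at 18.3 to 46.4 FPKM with Rab5 RNAi, 6.54 to 11.6 FPKM in Rab7-labelled and 14.9 to 24.7 FPKM in control libraries (1.67, adjusted p = 0.0016; Rab7-labelled minus control -1.20, adjusted p = 0.038). CG7365 held 8.52 to 12.6, 18.6 to 46.5 and 10.5 to 17.0 FPKM (-1.41, adjusted p = 0.0027; Rab7-labelled minus control 1.21, adjusted p = 0.025). mthl8, a methuselah-like receptor gene chosen after its values were seen, showed no difference between the RNAi groups. It had 0 reads in all 9 RNAi libraries and 27.5 to 34 FPKM in the controls, so both RNAi groups differed from the driver-only controls in this gene (-5.01 in each).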

How the data were processed

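RNA was sequenced from fly heads in 13 libraries. The authors deposited FPKM values, already normalized for length and library, covering 18344 genes, and per the submitters' processing notes CASAVA was used; for its version, the aligner, the counter, strand and genome build the entry is "not given in the sources used here", so reads of a gene and an antisense partner cannot be told apart. A series-wide table holds 13 further per-sample columns, which were not used. Of 17626 gene identifiers also in a BDGP6 annotation, 99.3% had the same start and end there; names come from the deposited table, with 5 names that had become dates repaired. FPKM times gene length gave whole multiples of 1 step for all 182918 values above 0 (within 0.05), so reads were recovered. Floors assume 3 reads and cover counting error only.

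Genes averaging 1 FPKM or more across all 13 libraries were tested as log2(FPKM + 1) with limma 3.58.1 in R 4.3.3 (mean-variance trend, robust empirical Bayes, 3 group means, no covariates), and called where the p adjusted by Benjamini and Hochberg over the 10038 genes was below 0.05. The scale understates changes of low genes. The fit was tested on simulated data. At the filter's edge, the gene models just outside and just inside had means of 0.9995 and 1.0001 FPKM over all libraries. Members, gene lists and the naming rule were chosen with earlier results of these data known; lists are described by counts and medians without a test. The rule named Rab5, Rab7, all tubulins, up to 4 called non-overlapping members by size of each list with at least 3 called genes, the 10 largest differences each way at 5 FPKM or more in an RNAi group, up to 8 genes with the controls between the RNAi groups, and up to 6 in which the Rab7-labelled libraries differed from controls while Rab5 RNAi overlapped them. Members of lists given with a difference alone, and genes so marked, were chosen after their values were seen. Alternatives were other pseudocounts, filters, scalings and fits, each library left out, each library set alone, and, added after seeing the data, the library set as a term.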

Additional observations from a re-analysis of the deposited data

Results flagged for a closer look

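In 453 group and gene combinations, 1 library lay far from the others of its group in 25; the rule used flags about 1 in 20 groups by chance. Control library 4 was the one in 15 of them. Among eye genes it held 205.9 FPKM of Rh4, 1.726 of Rh2, 78.55 of ninaG, 409.3 of chp, 43.54 of prom, 30.23 of gl and 83.34 of CarT. For Rh4 and Rh2 this was the lowest control library, and for the other 5 genes the highest. It also held 12.32 FPKM of betaTub60D, 286.3 of Cnx99A, 265.5 of CG1561, 12.3 of verm and 1574 of Act57B, each the highest control value, and 41.48 of CG6656, 52.27 of CG14186 and 405.2 of IM3, each the lowest. CG5778 held 86.49 FPKM in control library 2, below the other controls.

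Among Rab5 RNAi libraries, library 3 was low for alphaTub67C at 0.9026 FPKM and high for Tab2 at 19.94 FPKM. CecA1 reached 73.81 FPKM in library 2, lncRNA:CR40469 8.121 FPKM in library 4, SPH93 0.8373 FPKM in library 5 and CG15065 23.7 FPKM in library 1, each the highest of its group. Among Rab7-labelled libraries, library 3 was highest for GstE1 at 117.8 FPKM and for cry at 94.69 FPKM, and library 2 lowest for Osi6 at 125.1 FPKM. Whether depth, handling or tissue content moved with these values was not tested.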

How the results depend on the processing

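Under 24 alternatives, the number of genes called higher (469) moved by over 1.5 times in 3: it was 271 with the RNAi libraries fitted alone, 1221 with plain read totals and 295 without Rab7-labelled library 3. The number called lower (642) did so in 1, at 411 with the RNAi libraries alone. With each library left out in turn, the counts ranged from 295 to 454 higher and from 429 to 622 lower. With quantile normalization 596 were higher and 561 lower, 51.5% of calls higher against 42.2%. Same-numbered Rab5 RNAi and Rab7-labelled libraries had residual correlations of 0.17, 0.204, 0.221 and -0.0946, and differently numbered ones ranged from -0.21 to 0.23. These values do not settle whether the replicate numbers pair the libraries. With a replicate block 492 genes were called higher and 677 lower. The calls of Dro (adjusted p = 0.0543), CecA1 (0.0679) and Klp31E (0.053) were among those that ended there. Within the low set alone 587 were higher and 765 lower, within the high set 351 and 667, and with the set as a term, added after seeing the data, 671 and 895. Of 152 genes named by rule or by choice 137 were called, and 79 of these held under every alternative. Of the 137, 113 passed within the low set, 102 within the high set and 90 within both. With the RNAi libraries alone, the calls of Ama, retinin, Klp31E, Klp10A, Rab32, lt, Tep2, GstE14, Osi6, Osi9, y and NimB1 were among those that ended. The calls of Tep2, Cnx99A, Col4a1, Dsk and Npc2b ended in 13 to 16 alternatives. Rh6 turned from -0.04 to 0.47 (adjusted p = 0.0486) within the low set; the cause was not tested. The 4 and 5 libraries per group limit what small differences can show, and genes near 1 FPKM rest on few reads.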
